A study of Mus musculus with 107 samples.

Results

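The comparison described here sets neural progenitor cells (NPC) cultured for 4 days in 5% fetal bovine serum (FBS) against the same kind of cells cultured in 1% FBS. Its members were taken from the sample titles: 4 libraries titled for 5% FBS with no ciliary neurotrophic factor (CNTF) and 4 titled for 1% FBS, which makes 8 of the 107 libraries of the series. The series profiles ribosome-bound RNA of mouse embryonic stem cells, of NPC made from them, of NPC after differentiation in culture, and of NPC and host astrocytes in the spinal cord. The serum cultures form a dose series with SPONT (no serum), 1%, 5%, 10% and 20% FBS, and each dose has 4 libraries.

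All cells in the comparison are embryonic stem cell derived NPC of strain C57BL/6 with genotype RiboTag +, in which the ribosomal protein Rpl22 carries an HA tag. The study's methods describe the tag as switched on by Cre recombinase under the *Sox2* promoter, so every descendant of the stem cell line should carry it and no cell type among the cultured cells is selected by the pull-down. In both groups the growth factors EGF and FGF were reduced 100-fold, to 1 ng/ml, and the groups differ in the serum added, 5% or 1% by volume. HA-tagged ribosomes were immunoprecipitated and their poly-A RNA was sequenced, so a level below is that of ribosome-bound RNA, in counts scaled to the library total (CPM). Library totals are 77258550, 61590713, 75906831 and 90483031 counts at 1% and 82432622, 65390779, 78193304 and 70093256 at 5%, in replicate order, an order used for every list of values below. The study states in general terms that its culture experiments had independent biological replicates. Nothing in the labels says which culture each library came from, so the p-values measure the spread between these samples.

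The libraries are not alike within groups, which matters for the results that follow. A single identifier without a gene name in the reference tables takes 4.40, 5.73, 6.50 and 1.64% of all counts at 1% and 4.95, 5.95, 0.850 and 5.98% at 5%. Replicate 4 at 1% and replicate 3 at 5% therefore stand apart with low shares, 1 library in each group. Replicate 2 at 5% stands apart in another way, since it lies nearer to the 1% libraries than its group does. Among the 2646 genes that rose, it was the 5% library closest to the 1% mean for 1893, against 240, 265 and 248 genes for replicates 1, 3 and 4. The same held for 1264 of the 2084 genes that fell, against 218, 552 and 50. The tagged gene itself, *Rpl22*, was read at 76.7, 75.03, 74.7 and 91.2 CPM at 1% and 66.0, 79.9, 85.4 and 73.6 CPM at 5%, with overlapping groups and no call (edgeR log2FC −0.07, SE 0.09, adjusted p = 5.5e-01).

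Serum carries lysophosphatidic acid, sphingosine 1-phosphate, growth factors and proteins of blood plasma that most neural cells meet only when the blood-brain barrier is breached. In many cell types serum activates RhoA and actin polymerisation, which frees the cofactors Mrtfa and Mrtfb to join serum response factor (SRF) at CArG boxes, and it drives YAP and TEAD targets. Smooth muscle type contractile genes, collagens and their crosslinking enzymes are turned on together in fibroblasts that become myofibroblasts, while astrocytes and oligodendrocyte progenitors are the usual fates of glial progenitors.

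A large share of the genes that could be tested differed between 5% and 1% serum. More genes rose than fell, and most of the large changes were gains. Genes for contraction and matrix were among the gains, and genes of the oligodendrocyte lineage, of mature astrocytes and of cholesterol synthesis and uptake among the losses. Of 15226 genes tested with edgeR's quasi-likelihood test, 4730 (31.1%) had a Benjamini-Hochberg adjusted p below 0.01. Of these, 2646 (17.4%) were higher and 2084 (13.7%) lower at 5% FBS, and 1825 (12%) differed by a log2FC of 1 or more, 1227 (8.06%) of them higher and 598 (3.93%) lower. The shares of 17.4% higher and 13.7% lower are the background for each list count of this comparison below. The median log2FC of all tested genes was −0.00. Without both libraries that have a low share of the most abundant identifier, a choice made after seeing the data, 2960 genes were called, 1870 higher and 1090 lower. Without replicate 2 at 5%, the count was 5152, with 2762 higher and 2390 lower.

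The largest gains, among genes with at least 10 CPM in 1 group, include matrix, transport and junction genes beside genes of other kinds. *Thbs1* (chromosome 2), for the matrix glycoprotein thrombospondin 1, which binds cells and can activate latent TGF-beta, was at 4.52, 3.96, 1.62 and 2.16 CPM at 1% and 238, 129, 195 and 299 CPM at 5% (edgeR log2FC 6.14, SE 0.38, adjusted p = 1.9e-06). *Akr1c14*, for a steroid-reducing aldo-keto reductase, went from 0.0777, 0.422, 0.224 and 0.442 CPM to 21.9, 13.2, 41.6 and 54.4 CPM (edgeR log2FC 6.80, SE 0.57, adjusted p = 1.1e-05). *Npvf*, the precursor of RFamide-related neuropeptides, went from 2.93, 2.22, 1.53 and 3.13 CPM to 139, 51.7, 154 and 228 CPM (edgeR log2FC 5.86, SE 0.45, adjusted p = 6.2e-06). For all 3 genes every 5% library lies far above every 1% library, and replicate 2 is the lowest of the 5% libraries. *Cldn19*, for a tight junction claudin, rose from 2.64, 3.36, 2.41 and 2.28 CPM to 106, 72.5, 139.9 and 164 CPM (edgeR log2FC 5.50, SE 0.27, adjusted p = 8.7e-07). *Dcn*, for the collagen-binding proteoglycan decorin, rose from 2.85, 1.64, 1.08 and 0.564 CPM to 62.4, 99.8, 40.6 and 35.9 CPM (edgeR log2FC 5.29, SE 0.50, adjusted p = 2.5e-05), and here replicate 2 is the highest 5% library. Neither gene's groups overlap. The remaining gains named by the same rule were *Cdh26* (a cadherin, log2FC 6.27), *Myo5b* (a vesicle motor, 6.19), *C1qtnf3* (a secreted C1q-like protein, 6.15), *Slco1a4* (an organic anion transporter, 5.97), *Car3* (a carbonic anhydrase, 5.68), *Fgfbp1* (a carrier of FGFs, 5.55) and the uncharacterised *E330013P04Rik* (5.86), with edgeR adjusted p of at most 2.0e-05.

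The largest losses include genes of Notch signalling and of the oligodendrocyte lineage. *Hes5*, a repressor that Notch turns on in progenitors, was at 70.3, 67.0, 92.4 and 103 CPM at 1% and 9.38, 22.3, 16.3 and 7.78 CPM at 5% (edgeR log2FC −2.59, SE 0.30, adjusted p = 9.2e-05). *Nrarp*, a feedback inhibitor of Notch, was at 83.7, 76.4, 82.05 and 92.99 CPM and 12.5, 23.8, 15.2 and 9.32 CPM (edgeR log2FC −2.47, SE 0.23, adjusted p = 2.5e-05). *Slc6a11*, for the GABA transporter of astrocytes, was at 338.7, 295, 283 and 421 CPM and 34.5, 74.6, 83.7 and 35.95 CPM (edgeR log2FC −2.56, SE 0.28, adjusted p = 6.2e-05). In each of the 3 the groups are apart, and replicates 1 and 4 at 5% are the lowest. *Tmem255b*, for a little-studied membrane protein, fell with log2FC −2.59 and *Dpp6*, for a partner of potassium channels, with log2FC −2.53 (edgeR adjusted p = 6.7e-04 and 8.7e-04). *Khdrbs2*, for a splicing regulator, fell with log2FC −2.55 (edgeR adjusted p = 1.4e-03, and 1.1e-02 without the 2 low-share libraries). *Cbln2*, for a synaptic organiser, fell with log2FC −3.52 (edgeR adjusted p = 2.9e-03, and 1.0e-02 without replicate 3 at 5%). *Vxn*, which promotes neurogenesis, fell with log2FC −2.44 (edgeR adjusted p = 4.0e-03), a call that was lost without any of replicates 1, 2 and 3 at 1% or replicates 1 and 3 at 5% (at most 1.4e-02). *Opalin*, *Mbp*, *Sox10* and *Zfp488* complete this set and are described with the oligodendrocyte genes.

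**Figure D1:**
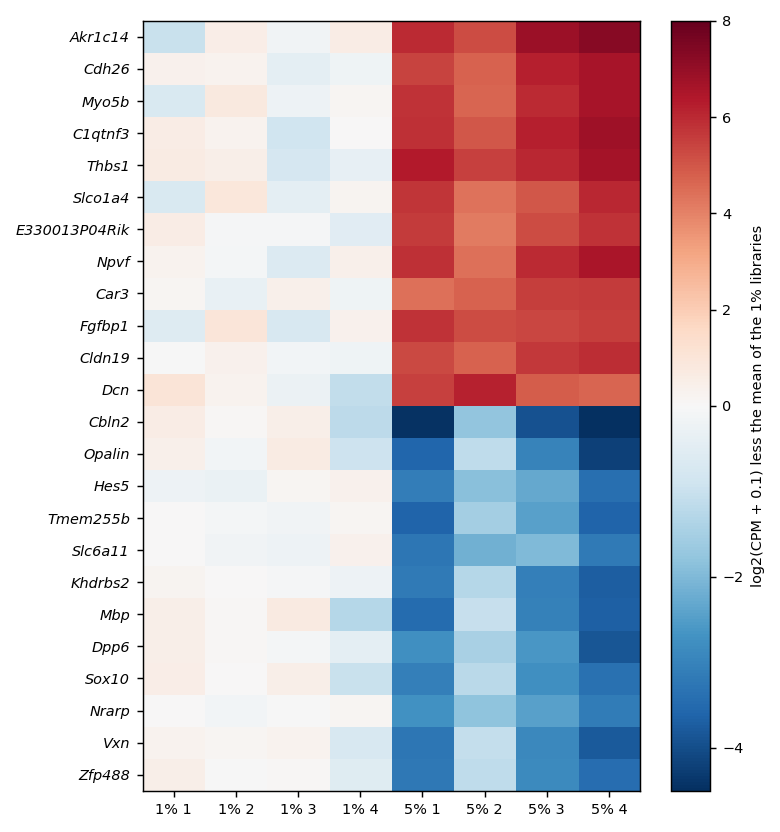
The 12 largest gains and 12 largest losses, among called genes that have a symbol and a mean of at least 10 CPM in the higher group. Each column is a library and each cell is its difference from the mean of the 1% libraries. Replicate 2 at 5% is paler than the other 5% libraries for most genes, *Dcn* being the clearest exception.

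The contractile cytoskeleton moved as a block, though not every member did. Most tropomyosin, calponin and myosin genes of the list rose, while of its actin genes *Acta2* alone did. The smooth muscle myosin gene *Myh11* and the desmin gene stayed near the floor of detection. Of 31 contractile genes tested, 23 rose, 3 fell and 5 did not pass, with a median log2FC of 1.35 beside −0.00 for all genes tested. *Acta2* (chromosome 19, 34240336–34255585), for smooth muscle alpha-actin, was at 39.2, 22.9, 11.2 and 9.69 CPM at 1% and 329, 218, 225 and 222 CPM at 5% (edgeR log2FC 3.58, SE 0.42, adjusted p = 8.8e-05). *Tagln*, for the actin binding protein transgelin, was at 24.96, 10.6, 6.30 and 7.65 CPM and 67.0, 65.0, 60.6 and 47.2 CPM (edgeR log2FC 2.27, SE 0.37, adjusted p = 7.7e-04). *Cnn1*, for the actomyosin regulator calponin 1, was at 1.19, 1.61, 0.962 and 1.26 CPM and 25.4, 13.9, 14.1 and 14.1 CPM (edgeR log2FC 3.75, SE 0.25, adjusted p = 2.6e-06). The groups of all 3 genes are apart, replicate 1 at 5% is the highest library of *Acta2* and *Cnn1*, and the 1% libraries of *Acta2* and *Tagln* spread widely, with replicate 1 on top. *Myl9*, for the regulatory light chain of smooth muscle myosin, was at 80.9, 74.5, 66.9 and 76.3 CPM and 371, 346, 411 and 383 CPM (edgeR log2FC 2.33, SE 0.07, adjusted p = 1.1e-07). *Fhl2*, for a LIM domain cofactor that shuttles between actin fibres and nucleus, was at 3.31, 2.32, 2.34 and 2.01 CPM and 48.9, 32.1, 28.8 and 53.1 CPM (edgeR log2FC 4.03, SE 0.25, adjusted p = 1.9e-06). *Tpm1*, for tropomyosin 1, was at 117, 122, 95.9 and 122 CPM and 533, 371, 499.9 and 531 CPM (edgeR log2FC 2.08, SE 0.12, adjusted p = 1.6e-06). These 3 genes show no overlap, and the 4 libraries of each group lie closer together for *Myl9* than for the others. *Lmod1*, for the actin nucleator leiomodin 1, rose from a mean of 10.97 to 50.6 CPM (log2FC 2.20, edgeR adjusted p = 2.3e-05).

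Per length, *Myl9* is the most abundant of the 4 contractile messages compared here, in both groups. Mean levels scaled to exon length (FPKM) went from 64.2 to 325 for *Myl9*, from 9.44 to 113 for *Acta2*, from 6.22 to 30.2 for *Tagln* and from 17.6 to 74.6 for *Tpm1*. The contractile genes that fell, named after their values were seen, were *Actc1* (cardiac actin, log2FC −1.32), *Tagln2* (transgelin 2, −0.83) and *Synpo2* (synaptopodin 2, −0.64), with edgeR adjusted p of 1.9e-03, 7.9e-04 and 1.2e-03. Those that did not pass were *Myh11*, *Acta1*, *Cnn3*, *Des* and *Csrp1*, also chosen after their values were seen. *Myh11*, for smooth muscle myosin heavy chain, was at 0.725, 0.617, 0.382 and 0.144 CPM at 1% and 0.679, 0.413, 0.512 and 0.713 CPM at 5%. *Des*, for the muscle intermediate filament desmin, was at 0.0388, 0.227, 0.184 and 0.343 CPM and 0.315, 0.306, 0.281 and 0.385 CPM. Both genes are below 1 CPM in all 8 libraries with overlapping groups, so the rise of *Acta2*, *Tagln* and *Cnn1* came without these 2 markers of mature smooth muscle. Actin genes are near-identical over their coding parts, so reads of *Acta2*, *Acta1*, *Actc1*, *Actb* and *Actg1* may be shared and their levels are uncertain to that degree.

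**Figure D2:**
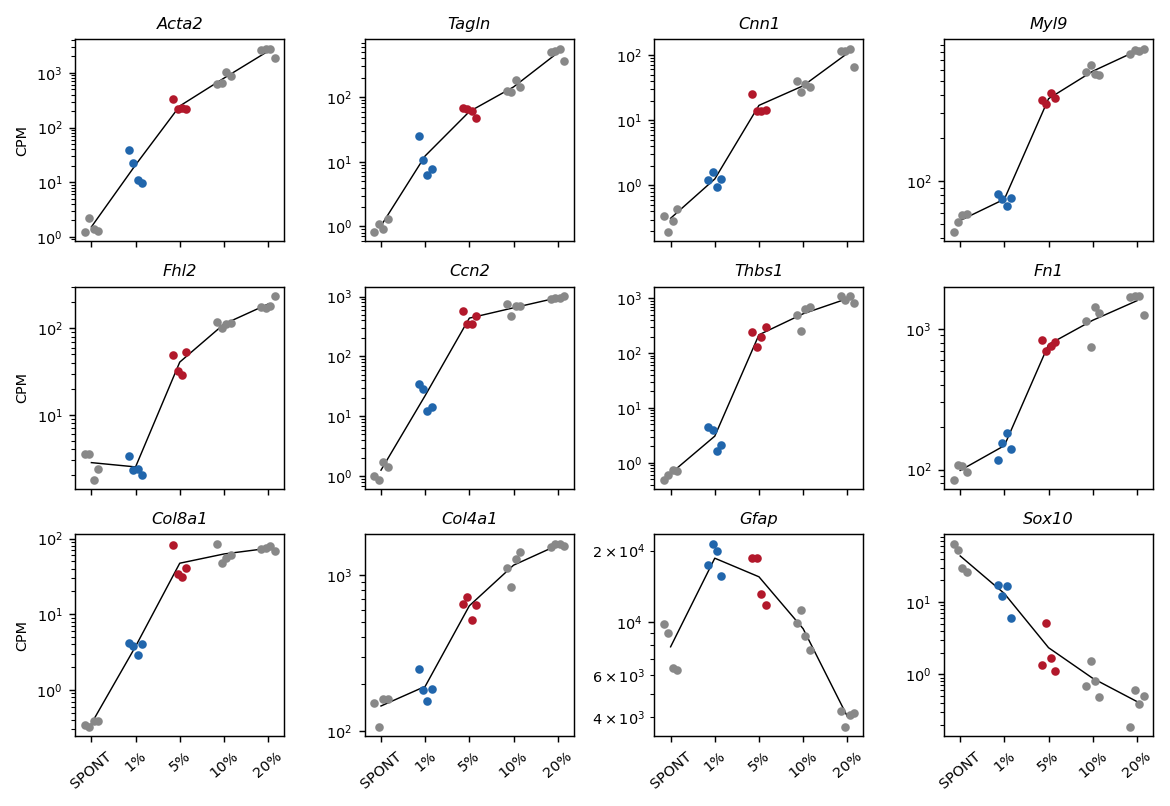
Levels of 12 named genes in each library of the serum series, in CPM on a log scale. Blue points are 1% FBS, red points 5% FBS and grey points the other doses. Lines join group means.

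Promoters of contractile genes hold CArG boxes, the sites to which SRF binds, more often than promoters at large. RefSeq promoters (GRCm38.p6) were found for 28 of the 32 contractile genes, and in 8 of them (28.6%) the 250 bases before a start hold a CArG box, on either strand since the motif reads the same on both. The share is 1.62% (439) of the 27025 genes in the promoter table. Counted by start, 9 of 34 contractile promoters (26.5%) and 482 of 32851 in all (1.47%) hold a box. The 8 genes are *Myl9*, *Acta1*, *Actc1*, *Cnn2*, *Filip1l*, *Myl6*, *Fhl1* and *Fhl2*. Of them *Actc1* fell and *Acta1* did not pass, while *Acta2* and *Cnn1* rose with no exact box in these bases. Only exact matches in the 250 bases before a start were sought, so inexact boxes and boxes elsewhere in a gene would be missed. The search also had no promoter for *Tagln*, *Myh11*, *Actg2* and *Tgfb1i1*. Whether a box goes with a rise was not tested. A match describes the sequence and does not show that SRF binds there. The upstream bases of *Myl9*, *Cnn2* and the 2 starts of *Fhl2* are shown as examples of genes that rose and hold a box, which is in capitals, while those of *Filip1l*, *Myl6* and *Fhl1*, which also rose and hold a box, are not shown. The bases shown lie at chr2:156775214-156775463, plus strand (*Myl9*), chr10:79988350-79988599, plus strand (*Cnn2*), chr1:43196762-43197011, minus strand and chr1:43163962-43164211, minus strand (*Fhl2*).
Myl9: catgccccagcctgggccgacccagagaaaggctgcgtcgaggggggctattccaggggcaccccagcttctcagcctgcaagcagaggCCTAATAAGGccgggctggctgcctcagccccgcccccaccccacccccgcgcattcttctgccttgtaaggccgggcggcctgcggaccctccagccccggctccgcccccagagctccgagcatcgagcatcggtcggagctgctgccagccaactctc
Cnn2: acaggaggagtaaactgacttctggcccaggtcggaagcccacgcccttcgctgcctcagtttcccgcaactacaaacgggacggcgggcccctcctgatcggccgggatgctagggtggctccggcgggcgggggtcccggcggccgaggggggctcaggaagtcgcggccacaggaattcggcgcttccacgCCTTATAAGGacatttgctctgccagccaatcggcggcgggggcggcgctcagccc
Fhl2, upstream start: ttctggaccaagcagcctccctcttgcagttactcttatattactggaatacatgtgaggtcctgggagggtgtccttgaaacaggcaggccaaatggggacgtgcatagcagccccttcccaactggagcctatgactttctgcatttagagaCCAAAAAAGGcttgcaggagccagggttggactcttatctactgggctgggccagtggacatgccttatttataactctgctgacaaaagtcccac
Fhl2, downstream start: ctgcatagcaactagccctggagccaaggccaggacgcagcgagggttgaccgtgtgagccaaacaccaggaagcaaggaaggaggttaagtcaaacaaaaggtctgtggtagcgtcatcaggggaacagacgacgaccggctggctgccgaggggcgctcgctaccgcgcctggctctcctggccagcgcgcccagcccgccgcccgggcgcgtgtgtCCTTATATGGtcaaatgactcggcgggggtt

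The wider actin and adhesion list had a lower median log2FC than the contractile list, a difference that was not tested. The cytoplasmic actin genes had small log2FC, and edgeR called *Actg1* but not *Actb*. Several integrin subunits and the adhesion proteins vinculin and zyxin rose more. Of 31 genes, 16 rose, 0 fell by edgeR and 15 did not pass, with a median log2FC of 0.42. At an unadjusted p under 0.05 edgeR has 3 lower, and DESeq2 calls 1 lower. *Actb*, for beta-actin, was at 5175, 5292, 5071 and 4978 CPM at 1% and 7081, 6218, 6327 and 6038 CPM at 5% (edgeR log2FC 0.32, SE 0.09, adjusted p = 1.6e-02). Its 5% values all lie above its 1% values without passing the test, and DESeq2 does call it (adjusted p = 1.7e-04). *Vcl*, for vinculin, which ties actin to adhesions, was at 114, 118, 87.5 and 104.8 CPM and 342, 232, 280.2 and 308 CPM (edgeR log2FC 1.45, SE 0.13, adjusted p = 1.5e-05). *Zyx*, for the stretch-sensitive adhesion protein zyxin, was at 57.7, 57.0, 60.3 and 57.4 CPM and 124, 100.5, 97.8 and 93.6 CPM (edgeR log2FC 0.83, SE 0.09, adjusted p = 5.8e-05). *Itga1*, a collagen receptor subunit, rose with log2FC 2.33, *Itga3*, a laminin receptor subunit, with 2.16 and *Cdc42ep3*, an effector of Cdc42 in actin bundling, with 1.72 (edgeR adjusted p = 3.0e-05, 1.2e-05 and 3.7e-05), each with groups apart. *Actg1*, for gamma-actin, passed narrowly (log2FC 0.35, edgeR adjusted p = 7.3e-03), and leaving out any library but replicate 1 at 1% or replicate 2 at 5% ended its call (at most 2.4e-02), as did replicate numbers as blocks (1.5e-02).

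Genes of SRF and its cofactors rose modestly, and immediate early genes differed among themselves. Members of the Egr family and the Dusp phosphatases that damp MAP kinases rose, while *Fos* and *Jun* did not pass. Of 23 genes, 14 rose, 1 fell and 8 did not pass, with a median log2FC of 0.86. *Srf* was at 46.8, 45.9, 46.98 and 41.9 CPM at 1% and 102.3, 88.3, 71.2 and 73.2 CPM at 5% (edgeR log2FC 0.88, SE 0.12, adjusted p = 2.4e-04), with groups apart. *Mrtfa* rose with log2FC 0.38 and *Mrtfb* with 0.43 (edgeR adjusted p = 2.8e-03 and 1.4e-03), and *Mrtfa* was not called without the 2 low-share libraries (1.3e-02). Their relative *Myocd* (myocardin), which drives smooth muscle identity, had at most 0.0384 CPM in any of the 8 libraries and was not tested. *Dusp6*, an ERK phosphatase, was at 5.41, 5.76, 5.39 and 7.07 CPM and 28.01, 22.3, 45.9 and 41.2 CPM (edgeR log2FC 2.53, SE 0.21, adjusted p = 1.1e-05), with replicates 3 and 4 highest. *Egr3* rose from 0.362, 0.276, 0.145 and 0.542 CPM to 2.61, 2.46, 3.27 and 2.13 CPM (edgeR log2FC 2.95, SE 0.32, adjusted p = 6.0e-05), and *Dusp1* with log2FC 2.19 (edgeR adjusted p = 4.9e-05), both with groups apart. The gene that fell, named after its values were seen, was *Myc*, a growth regulator (log2FC −0.62, edgeR adjusted p = 6.5e-03).

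Most YAP and TEAD targets on the list rose, the CCN matricellular genes *Ccn1* and *Ccn2* among them. Of 24 genes, 17 rose and 7 did not pass, with a median log2FC of 0.81. EdgeR called 0 lower, against 1 at an unadjusted p under 0.05, 0 by DESeq2 and 1 in the edgeR fit of 5 doses. *Ccn2* (chromosome 10, 24595442–24598683), for connective tissue growth factor, was at 34.4, 28.3, 12.2 and 14.2 CPM at 1% and 574, 347.5, 350.1 and 473 CPM at 5% (edgeR log2FC 4.29, SE 0.35, adjusted p = 1.0e-05). *Ccn1*, for its relative Cyr61, was at 59.9, 63.7, 61.0 and 59.3 CPM and 551, 573, 441 and 461 CPM (edgeR log2FC 3.05, SE 0.11, adjusted p = 1.1e-07). *Nuak2*, for a kinase that promotes actomyosin tension, was at 2.03, 2.57, 2.12 and 2.87 CPM and 66.3, 37.96, 48.9 and 60.9 CPM (edgeR log2FC 4.47, SE 0.20, adjusted p = 6.4e-07). In all 3 the groups are far apart, and the 1% values of *Ccn1* and *Nuak2* are tight while those of *Ccn2* fall into a higher and a lower pair. *Igfbp3*, an IGF carrier, rose from 105.5, 91.5, 71.7 and 120.05 CPM to 808, 596, 1102 and 1097 CPM (edgeR log2FC 3.21, SE 0.21, adjusted p = 2.7e-06). *Dock5*, a Rac activator, rose with log2FC 2.36 and *Amotl2*, a YAP-binding angiomotin, with 0.56 (edgeR adjusted p = 1.0e-04 and 4.4e-04). *Ankrd1*, a cardiac and muscle ankyrin protein often used as a YAP readout, was under 1 CPM in every library and was not tested.

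Most fibrous matrix genes rose, but *Col1a1* and *Col3a1*, for fibrillar collagens that give scars their bulk, did not pass. Fibronectin, thrombospondin 1, decorin, tenascin C and collagen VIII separated the groups cleanly, whereas collagen I and III were uneven across replicates. Of 31 genes, 21 rose and 10 did not pass, with a median log2FC of 1.73, the largest of the 22 lists. EdgeR called 0 lower, against 2 at an unadjusted p under 0.05 and 0 by DESeq2. *Fn1* (chromosome 1, 71585473–71653280), for fibronectin, was at 117, 154, 181 and 140.1 CPM at 1% and 828, 699.6, 762 and 809.6 CPM at 5% (edgeR log2FC 2.38, SE 0.13, adjusted p = 1.3e-06), with groups far apart. *Col8a1*, for a short-chain collagen of vessel walls, was at 4.19, 3.82, 2.90 and 4.10 CPM and 83.4, 33.6, 30.8 and 41.2 CPM (edgeR log2FC 3.65, SE 0.32, adjusted p = 1.5e-05), with replicate 1 at 5% on top. *Col1a1*, for the main chain of collagen I, was at 52.1, 42.9, 13.9 and 10.01 CPM and 103, 278, 94.8 and 69.0 CPM (edgeR log2FC 2.20, SE 0.58, adjusted p = 1.1e-02). Its groups do not overlap, but replicate 2 at 5% is far above the rest, and the adjusted p misses the threshold of 0.01. It was called without replicate 4 at 5% (9.0e-03), by DESeq2 (6.7e-03) and with replicate numbers as blocks (7.8e-04). *Col3a1*, for collagen III, was at 56.9, 23.9, 10.5 and 8.83 CPM and 27.8, 109, 27.9 and 17.2 CPM, with overlapping groups and no call (edgeR log2FC 0.86, SE 0.68, adjusted p = 3.2e-01). *Col1a2*, the partner chain of *Col1a1*, was below 1 CPM in all 8 libraries (0.362, 0.406, 0.395 and 0.199 CPM and 0.352, 0.688, 0.320 and 0.542 CPM), so the 2 chains of collagen I are not read at matching levels.

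Enzymes that shape collagen rose nearly throughout. Lysyl oxidases, which crosslink collagen and elastin, and the procollagen protease enhancer stand out. Of 18 genes, 16 rose and 2 did not pass, with a median log2FC of 1.17. EdgeR called 0 lower, also 0 at an unadjusted p under 0.05 and 0 by DESeq2. *Lox* was at 8.47, 2.95, 0.949 and 1.37 CPM at 1% and 69.3, 54.3, 20.6 and 41.5 CPM at 5% (edgeR log2FC 3.76, SE 0.64, adjusted p = 9.5e-04). *Loxl2* was at 8.04, 7.45, 4.22 and 6.18 CPM and 57.0, 44.7, 55.3 and 64.6 CPM (edgeR log2FC 3.10, SE 0.19, adjusted p = 1.8e-06). *Pcolce*, for the enhancer of procollagen C-proteinase, was at 80.4, 52.4, 46.0 and 52.6 CPM and 499, 454, 579.5 and 627 CPM (edgeR log2FC 3.22, SE 0.18, adjusted p = 1.3e-06). None of the 3 overlaps, and *Lox* is the most uneven, with replicate 1 at 1% several times its companions and replicate 3 the lowest at 5%. *Loxl1* rose with log2FC 2.52, *Plod2*, which hydroxylates collagen lysines, with 1.60 and *Fkbp10*, a collagen chaperone, with 2.04 (edgeR adjusted p = 1.8e-05, 1.1e-05 and 3.5e-04). *Loxl3* rose least of the lysyl oxidases that passed (log2FC 0.42, edgeR adjusted p = 2.3e-03, and 2.0e-02 without the 2 low-share libraries).

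Basement membrane genes rose in part, with genes of laminin alpha-4, nidogen 2 and collagen IV among the gains. Of 16 genes, 10 rose and 6 did not pass, with a median log2FC of 0.97. EdgeR called 0 lower, also 0 at an unadjusted p under 0.05 and 0 by DESeq2. *Nid2*, for nidogen 2, which links laminin to collagen IV, was at 77.04, 63.05, 62.6 and 53.4 CPM at 1% and 696, 534, 599 and 589 CPM at 5% (edgeR log2FC 3.23, SE 0.13, adjusted p = 2.8e-07). *Lama4*, for the laminin alpha chain of vessel walls, was at 2.63, 1.14, 1.17 and 1.36 CPM and 17.9, 31.9, 32.7 and 32.3 CPM (edgeR log2FC 4.18, SE 0.30, adjusted p = 4.4e-06). The neighbours *Col4a1* and *Col4a2*, which share a promoter on chromosome 8, rose together: *Col4a1* was at 250.4, 183.4, 156 and 186 CPM and 649, 728, 519 and 648 CPM (log2FC 1.71, edgeR adjusted p = 1.7e-05). *Col4a2* was at 73.5, 44.8, 46.97 and 41.5 CPM and 268, 286, 258 and 314 CPM (log2FC 2.44, edgeR adjusted p = 4.3e-06). The groups of these 4 genes do not overlap, and replicate 1 at 5% is the lowest 5% library of *Lama4*. *Lamb1*, for laminin beta-1, rose with log2FC 1.92 (edgeR adjusted p = 2.7e-07). *Col15a1* was at 58.5, 13.2, 17.4 and 16.8 CPM and 83.7, 268, 130.1 and 109.9 CPM (edgeR log2FC 2.48, SE 0.52, adjusted p = 3.0e-03), a call lost without replicate 3 or 4 at 1% (1.2e-02 and 1.1e-02). *Lama5* passed narrowly (log2FC 0.51, edgeR adjusted p = 7.4e-03) and did not pass with any library but replicate 4 at 5% left out (at most 2.3e-02) or with replicate numbers as blocks (1.3e-02).

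Proteases and inhibitors of the matrix were mixed. Of 20 genes, 11 rose and 9 did not pass, with a median log2FC of 0.80. EdgeR called 0 lower, against 2 at an unadjusted p under 0.05, 1 by DESeq2 and 1 in the edgeR fit of 5 doses. *Mmp2*, for gelatinase A, was at 131, 109, 145 and 148 CPM at 1% and 306, 321, 464 and 452 CPM at 5% (edgeR log2FC 1.53, SE 0.15, adjusted p = 3.4e-05), with groups apart and replicates 3 and 4 highest. *Adamts5*, for an aggrecanase, was at 7.57, 4.12, 2.96 and 2.995 CPM and 38.4, 38.2, 15.8 and 21.8 CPM (edgeR log2FC 2.69, SE 0.37, adjusted p = 2.8e-04), here with replicates 1 and 2 highest. *Adamts1*, which cleaves versican, rose with log2FC 2.05 and *Plau*, for urokinase, with 2.28 (edgeR adjusted p = 2.5e-04 and 1.1e-05). *Mmp14* and *Timp1* did not pass (edgeR adjusted p = 4.0e-02 and 4.1e-01).

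Transcription factors of epithelial-mesenchymal transition divided into those that rose and those that did not. The Snail and Twist genes rose and *Zeb1* fell a little. Of 18 genes, 11 rose, 3 fell and 4 did not pass, with a median log2FC of 1.26. *Zeb1* and *Cdh1* are among the 3 that fell, and the cadherins of the list other than *Cdh1* are not described here. *Snai1* was at 5.35, 2.89, 2.40 and 2.77 CPM at 1% and 29.8, 18.4, 19.3 and 25.5 CPM at 5% (edgeR log2FC 2.79, SE 0.26, adjusted p = 2.5e-05). *Snai2* was at 0.595, 0.373, 0.237 and 0.442 CPM and 3.82, 3.15, 5.01 and 6.61 CPM (edgeR log2FC 3.48, SE 0.32, adjusted p = 1.9e-05). *Twist1* was at 13.2, 10.7, 11.1 and 14.5 CPM and 39.2, 27.8, 51.6 and 52.8 CPM (edgeR log2FC 1.78, SE 0.19, adjusted p = 4.7e-05). The groups of these 3 factors do not overlap. *Twist2* rose with log2FC 2.87 and *Foxc1*, a mesenchymal forkhead factor, with 1.81 (edgeR adjusted p = 8.8e-05 and 5.6e-05). *Zeb1*, a factor also used by neural progenitors, was at 143, 147, 131 and 150.3 CPM and 112, 117, 110.1 and 100.1 CPM (edgeR log2FC −0.38, SE 0.07, adjusted p = 9.9e-04), all 5% values below all 1% values, though it was not called without the 2 low-share libraries (1.0e-02). *Cdh1*, for the epithelial E-cadherin that Snail proteins repress, was below 1 CPM throughout, at 0.311, 0.162, 0.553 and 0.575 CPM and 0.0607, 0.122, 0 and 0 CPM, and its call (edgeR log2FC −3.15, SE 0.78, adjusted p = 7.8e-03) was lost without any library other than replicate 2 of either group (at most 2.4e-02) and with replicate numbers as blocks (3.1e-02).

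In the TGF-beta pathway *Tgfb3*, a receptor and a matrix protein rose, while *Tgfb1* and *Tgfb2* did not pass. Of 26 genes, 13 rose and 13 did not pass, with a median log2FC of 0.69. EdgeR called 0 lower, against 2 at an unadjusted p under 0.05 and 0 by DESeq2. *Tgfb3* was at 7.78, 9.16, 8.01 and 7.29 CPM at 1% and 64.6, 39.1, 64.2 and 65.9 CPM at 5% (edgeR log2FC 2.85, SE 0.17, adjusted p = 1.4e-06). *Tgfbr2*, for the receptor that binds the ligand, was at 18.3, 17.3, 14.6 and 14.2 CPM and 80.0, 65.1, 92.6 and 118 CPM (edgeR log2FC 2.46, SE 0.18, adjusted p = 4.1e-06). *Ltbp2*, for a microfibril protein of the latent TGF-beta binding family, was at 2.56, 1.83, 1.52 and 1.43 CPM and 46.2, 41.7, 55.8 and 99.9 CPM (edgeR log2FC 5.05, SE 0.33, adjusted p = 2.4e-06). All 3 have groups apart, with replicate 2 lowest at 5% for each. *Fst*, for the activin trap follistatin, rose at low levels (log2FC 2.49, edgeR adjusted p = 5.3e-04). *Tgfb1* was at 2.21, 1.90, 1.82 and 1.67 CPM and 1.78, 2.48, 1.92 and 2.91 CPM, with no call (log2FC 0.25, edgeR adjusted p = 3.3e-01). *Tgfb2* did not pass (log2FC 0.29, edgeR adjusted p = 1.4e-01), nor did the signalling receptor *Tgfbr1* (log2FC 0.40, edgeR adjusted p = 1.1e-02), which was called without replicate 1 at 1% (8.6e-03) and with replicate numbers as blocks (8.8e-03). Serum brings its own TGF-beta, which RNA does not show.

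In the BMP list the gains include a ligand and 2 inhibitors of the pathway. Of 24 genes, 11 rose, 2 fell and 11 did not pass, with a median log2FC of 0.34. The 2 that fell did so by less than 2-fold and are not described here. *Bmp6* was at 3.51, 3.21, 2.08 and 1.92 CPM at 1% and 89.7, 46.7, 59.5 and 82.8 CPM at 5% (edgeR log2FC 4.70, SE 0.27, adjusted p = 1.5e-06). *Smad6*, for an inhibitory Smad that BMP itself turns on, was at 7.97, 6.90, 8.60 and 6.56 CPM and 37.4, 32.2, 37.2 and 41.6 CPM (edgeR log2FC 2.30, SE 0.12, adjusted p = 1.1e-06). *Chrdl1*, for a secreted BMP antagonist, rose with log2FC 2.29 (edgeR adjusted p = 5.1e-05). The Id genes, direct BMP targets that hold back differentiation, differed: *Id1* was at 170.9, 190.4, 191 and 181 CPM and 358, 331.02, 331.7 and 306 CPM (log2FC 0.85, edgeR adjusted p = 1.2e-05). *Id3* rose with log2FC 0.52 (edgeR adjusted p = 1.9e-04), both with groups apart. *Id2* was at 297, 289, 298 and 326 CPM and 299, 298, 310.0 and 327 CPM and *Id4* at 215, 167.3, 177 and 229.5 CPM and 161, 218, 193.4 and 167.01 CPM, with overlapping groups and no call (edgeR adjusted p = 7.9e-01 and 5.2e-01).

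Growth factor and receptor genes changed in both directions, with *Igf1* and *Edn1* among the gains. Of 27 genes, 10 rose, 6 fell and 11 did not pass, with a median log2FC of 0.31. The 6 that fell, 2 of them by a log2FC of 1 or more in size, were not reached by the naming rule, so the called genes below are all gains. *Igf1*, for insulin-like growth factor 1, was at 1.13, 0.958, 0.422 and 0.641 CPM at 1% and 28.4, 24.4, 12.6 and 20.5 CPM at 5% (edgeR log2FC 4.78, SE 0.34, adjusted p = 4.1e-06). *Edn1*, for the vasoconstrictor endothelin 1, was at 0.220, 0, 0.0263 and 0.0553 CPM and 6.24, 3.69, 3.89 and 4.85 CPM (edgeR log2FC 5.87, SE 0.55, adjusted p = 2.5e-05). *Pdgfrb*, for the PDGF receptor of mural and mesenchymal cells, was at 9.85, 5.33, 3.90 and 2.32 CPM and 38.2, 39.1, 23.1 and 25.8 CPM (edgeR log2FC 2.56, SE 0.39, adjusted p = 4.5e-04). The groups are apart for all 3, with *Edn1* at or close to 0 in each 1% library. *Hbegf*, a ligand of the EGF receptor, was at 40.7, 40.4, 40.04 and 39.8 CPM and 186, 105.2, 165 and 175.6 CPM (edgeR log2FC 1.96, SE 0.15, adjusted p = 6.3e-06). *Pdgfb* rose with log2FC 3.23 and *Pdgfa* with 0.98 (edgeR adjusted p = 1.1e-04 and 9.6e-05), whereas *Vegfa* did not pass (2.7e-01).

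Proteoglycans changed in both directions, with the glypicans *Gpc4* and *Gpc6* higher and the chondroitin sulphate proteoglycan gene *Cspg5* lower. Of 21 genes, 6 rose, 7 fell and 8 did not pass, with a median log2FC of −0.07. *Gpc4*, a heparan sulphate glypican, was at 29.9, 28.8, 21.6 and 35.4 CPM at 1% and 499, 249, 592 and 679.8 CPM at 5% (edgeR log2FC 4.12, SE 0.29, adjusted p = 3.8e-06). *Gpc6* was at 22.004, 20.5, 16.0 and 18.003 CPM and 105.5, 69.6, 91.3 and 118.5 CPM (edgeR log2FC 2.33, SE 0.16, adjusted p = 4.0e-06). *Cspg5*, for neuroglycan C, was at 360.5, 312, 351 and 492 CPM and 129.6, 182, 200.2 and 120.3 CPM (edgeR log2FC −1.27, SE 0.17, adjusted p = 2.4e-04). Groups are apart for these 3 genes. *Tnr*, for the perineuronal glycoprotein tenascin R, was at 68.9, 81.9, 57.0 and 48.1 CPM and 11.6, 35.8, 13.04 and 10.3 CPM (edgeR log2FC −1.86, SE 0.38, adjusted p = 2.5e-03), and *Has2*, a hyaluronan synthase, fell with log2FC −2.21 (edgeR adjusted p = 2.2e-03). Neither was called without the 2 low-share libraries (1.3e-02 and 1.3e-02). *Vcan*, for versican, was at 314, 290.0, 256 and 209 CPM and 83.9, 173, 66.9 and 42.5 CPM (edgeR log2FC −1.55, SE 0.36, adjusted p = 5.2e-03), a call lost without any of replicates 1, 2 and 3 at 1% or replicates 1 and 3 at 5% (at most 1.7e-02). *Acan*, for aggrecan, was at 3.92, 4.24, 3.98 and 3.61 CPM and 0.861, 5.32, 2.07 and 0.785 CPM and did not pass (log2FC −0.81, edgeR adjusted p = 2.1e-01). Without replicate 2 at 5%, the highest of all 8, it was called with log2FC −1.69 (edgeR adjusted p = 1.0e-03).

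**Figure D3:**
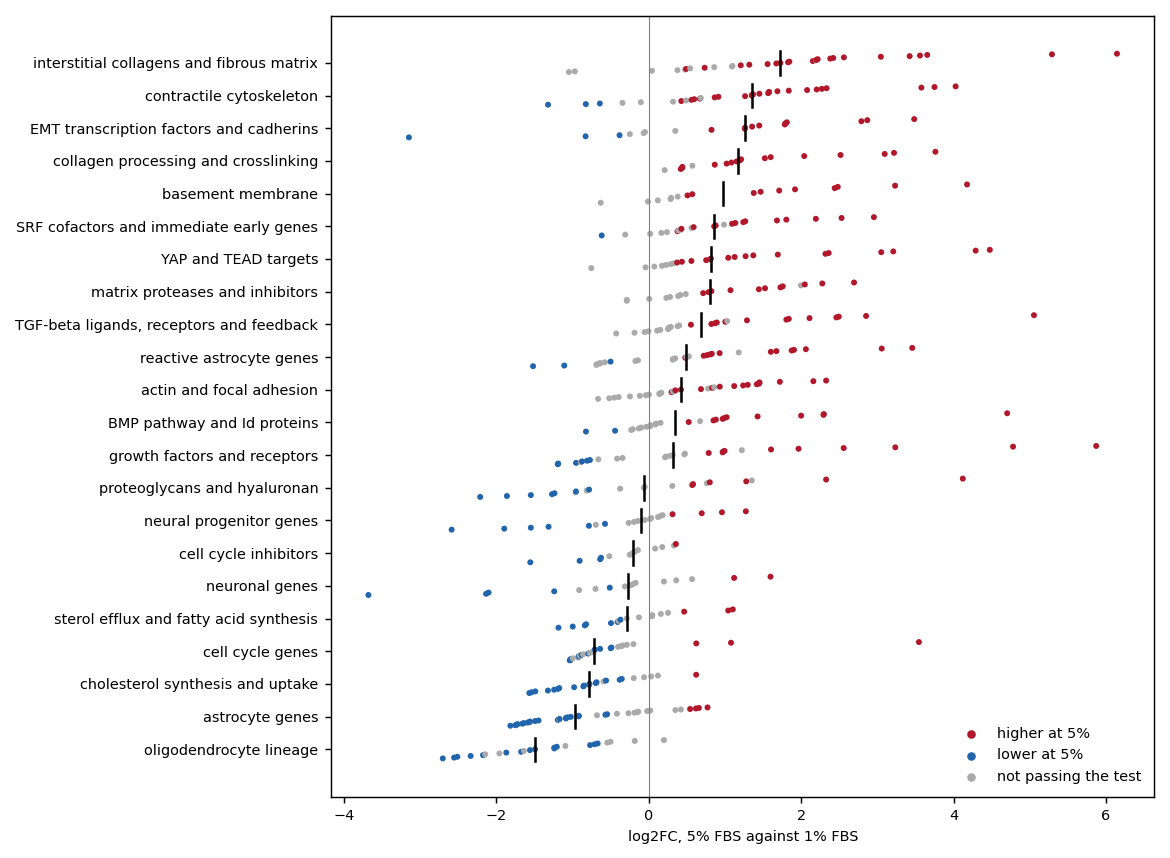
The log2FC of every tested gene in each of the 22 lists, 5% FBS against 1% FBS. Red genes are higher and blue genes lower at 5%, grey genes did not pass the test, and black bars are list medians.

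Genes of mature astrocytes fell more often than they rose, yet the best known astrocyte marker was not called. A water channel gene and 2 gap junction genes fell, while a glutamate transporter did not pass. Of 36 genes, 4 rose, 21 fell and 11 did not pass, with a median log2FC of −0.97. In RNA from whole cultures, fewer cells of a type and less RNA per cell cannot be told apart. *Gfap*, for the astrocyte intermediate filament, was at 17348, 21399, 19987 and 15617 CPM at 1% and 18545, 18686, 13089.6 and 11774 CPM at 5% (edgeR log2FC −0.27, SE 0.18, adjusted p = 2.6e-01). *Slc1a3*, for the glutamate transporter GLAST, was at 793, 778, 674 and 1002 CPM and 709.6, 736, 887 and 876 CPM (edgeR log2FC −0.02, SE 0.12, adjusted p = 8.9e-01). Both genes overlap between groups, and for *Gfap* replicates 1 and 2 at 5% are within the range of the 1% libraries while replicates 3 and 4 are below it. *Gja1*, for the gap junction protein connexin 43, was at 1021, 1080.2, 945 and 1176 CPM and 448, 578, 532 and 442 CPM (edgeR log2FC −1.08, SE 0.10, adjusted p = 2.3e-05). *Agt*, for angiotensinogen, was at 2014, 1706, 2124 and 2083 CPM and 455, 869, 653 and 419 CPM (edgeR log2FC −1.73, SE 0.21, adjusted p = 1.1e-04). *Pla2g7*, for a lipoprotein-bound phospholipase, was at 1007, 994, 1082 and 1231 CPM and 254, 443, 349 and 186.6 CPM (edgeR log2FC −1.82, SE 0.22, adjusted p = 1.1e-04). These 3 are lower in every 5% library than in any 1% library, with replicate 2 the highest at 5%. *Gjb6*, for connexin 30, fell with log2FC −1.75 (edgeR adjusted p = 1.5e-04). *Aqp4*, for the water channel of astrocyte endfeet, was at 159.9, 185, 149.7 and 86.02 CPM and 73.9, 77.2, 30.9 and 25.6 CPM (edgeR log2FC −1.49, SE 0.37, adjusted p = 7.8e-03), a call lost without any of replicates 1, 2 and 3 at 1% or replicates 3 and 4 at 5% (at most 2.3e-02). The list's gains, named after their values were seen, were *Clu* (clusterin, log2FC 0.77), *Kcnj10* (a potassium channel, 0.66), *Mlc1* (a membrane protein of endfeet, 0.62) and *Nfia* (a gliogenic factor, 0.54), with edgeR adjusted p of at most 5.3e-03.

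Genes tied to astrocyte reactivity went separate ways. The complement gene *C3*, ceruloplasmin and vimentin rose, and the acute phase genes *Lcn2* and *Serpina3n* did not pass. Of 29 genes, 13 rose, 3 fell and 13 did not pass, with a median log2FC of 0.49. The 3 that fell, 2 of them by a log2FC of 1 or more in size, lie outside the rule for naming genes and are not described. *Cp*, for the copper oxidase ceruloplasmin, was at 215, 222, 138 and 211 CPM at 1% and 1923, 1155, 1541 and 1934 CPM at 5% (edgeR log2FC 3.06, SE 0.20, adjusted p = 2.4e-06). *C3* was at 516, 569, 466 and 266 CPM and 1909, 1248, 1018 and 1649 CPM (edgeR log2FC 1.67, SE 0.26, adjusted p = 5.2e-04). *Vim* was at 1918, 2286, 2248 and 2155 CPM and 4108, 3246, 3936 and 3837 CPM (edgeR log2FC 0.81, SE 0.10, adjusted p = 1.5e-04). Each has groups apart. *Anxa3*, for a calcium-dependent membrane-binding protein, rose with log2FC 3.46 and *Steap4*, for a metalloreductase, with 2.06 (edgeR adjusted p = 4.9e-05 and 1.2e-03). *Lcn2*, for the iron-carrier binding lipocalin 2, was at 47.8, 58.2, 39.2 and 13.6 CPM and 63.9, 36.3, 18.1 and 22.96 CPM, with wide, overlapping groups (log2FC −0.18, edgeR adjusted p = 7.8e-01). *Serpina3n*, for a protease inhibitor, was at 290.1, 431, 375 and 219 CPM and 279, 238, 142 and 187.8 CPM, also with overlap (log2FC −0.64, edgeR adjusted p = 5.1e-02). It was called lower with all 8 culture conditions in 1 fit (edgeR adjusted p = 7.6e-03).

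The oligodendrocyte lineage list had the lowest median of the 22 lists. Lineage factors and myelin genes fell, but *Pdgfra*, the receptor that marks the progenitors, did not pass. Of 23 genes, 15 fell and 8 did not pass, with a median log2FC of −1.49. EdgeR called 0 higher, also 0 at an unadjusted p under 0.05 and 0 by DESeq2. The count of calls was 9 without replicate 1 at 1%, 9 without replicate 1 at 5%, 9 without replicate 3 at 5% and 9 without the 2 low-share libraries. *Olig2*, a lineage-defining factor, was at 691, 582, 646 and 638 CPM at 1% and 243, 398, 277 and 169.7 CPM at 5% (edgeR log2FC −1.24, SE 0.21, adjusted p = 8.0e-04). *Sox10* was at 17.4, 12.3, 16.8 and 6.06 CPM and 1.35, 5.18, 1.70 and 1.10 CPM (edgeR log2FC −2.51, SE 0.51, adjusted p = 2.5e-03). *Mbp*, for myelin basic protein, was at 200.1, 156, 238 and 60.0 CPM and 12.97, 70.6, 17.4 and 11.4 CPM (edgeR log2FC −2.55, SE 0.62, adjusted p = 7.2e-03). Replicate 2 at 5% is the highest of its group for all 3, and for *Mbp* it exceeds replicate 4 at 1%, so that those groups overlap. The *Mbp* call was lost without any of replicates 1, 2 and 3 at 1% or 1, 3 and 4 at 5% (at most 2.2e-02). *Opalin*, for a myelin membrane protein, was at 13.4, 9.04, 15.7 and 5.17 CPM and 0.740, 4.45, 1.14 and 0.442 CPM (edgeR log2FC −2.70, SE 0.64, adjusted p = 6.1e-03), and its call was lost without the same libraries (at most 2.0e-02). *Zfp488*, for an oligodendrocyte zinc finger factor, fell with log2FC −2.44 (edgeR adjusted p = 2.6e-03), though it was not called without the 2 low-share libraries (1.3e-02). *Ugt8a*, the enzyme of galactolipid synthesis, fell with log2FC −2.34 (edgeR adjusted p = 3.1e-03), a call lost without replicate 1 at 1% or replicates 1 or 3 at 5% (at most 1.1e-02). *Pdgfra* was at 136, 127.05, 119.4 and 133 CPM and 100.2, 144, 107 and 104.7 CPM, with overlap and no call (log2FC −0.18, edgeR adjusted p = 2.0e-01). Without replicate 2 at 5% it was called, with log2FC −0.33 (edgeR adjusted p = 2.4e-03).

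Most neuronal genes were read at low levels, and *Dcx*, a gene of young neurons, fell. Of 16 genes, 2 rose, 5 fell and 9 did not pass, with a median log2FC of −0.27, and without the 2 low-share libraries 3 were called. Among all tested genes 17.4% rose, so 2 gains say little of the list. *Dcx*, for the doublecortin of migrating neuroblasts, was at 11.3, 8.51, 9.59 and 6.26 CPM at 1% and 0.461, 1.71, 0.409 and 0.257 CPM at 5% (edgeR log2FC −3.68, SE 0.50, adjusted p = 2.5e-04). *Elavl3*, for a neuronal RNA-binding protein, was at 23.9, 26.9, 27.3 and 21.7 CPM and 4.60, 11.9, 3.96 and 2.87 CPM (edgeR log2FC −2.10, SE 0.38, adjusted p = 1.2e-03). Both are lower in every 5% library. *Tubb3*, for neuronal tubulin, was at 115, 98.7, 101.6 and 93.7 CPM and 68.4, 85.4, 40.2 and 23.97 CPM (edgeR log2FC −0.91, SE 0.31, adjusted p = 3.4e-02). Its groups are apart, and it was called without replicate 2 at 5% (edgeR adjusted p = 3.8e-03). *Snap25*, for a protein of synaptic vesicle fusion, was at 0.608, 0.812, 0.659 and 0.508 CPM and 0.934, 1.13, 0.486 and 0.770 CPM with no call (log2FC 0.36, edgeR adjusted p = 3.5e-01). The gains on this list were *Gad1*, for an enzyme of GABA synthesis (log2FC 1.60, edgeR adjusted p = 2.6e-03), and *Rbfox3*, for a neuronal splicing factor (log2FC 1.12, edgeR adjusted p = 3.4e-04). The *Gad1* call was lost with replicate numbers as blocks (edgeR adjusted p = 1.0e-02) and without the 2 low-share libraries (1.6e-02).

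Among progenitor genes *Hes5* and the Notch ligand *Dll1* fell, and the core factor *Sox2* did not pass. Of 20 genes, 4 rose, 6 fell and 10 did not pass, with a median log2FC of −0.10. The share that rose is near the 17.4% of all tested genes, so that count says little of the progenitor list. *Sox2* was at 565, 549, 573 and 611 CPM at 1% and 593, 553, 643 and 547 CPM at 5%, with overlapping groups (log2FC 0.02, edgeR adjusted p = 8.7e-01). *Fabp7*, for the fatty acid binding protein of radial glia, was at 1129, 1061, 1161 and 1861 CPM and 997, 1086, 1331 and 942 CPM, also with overlap (log2FC −0.26, edgeR adjusted p = 2.2e-01). *Dll1*, for a Notch ligand, was at 62.7, 62.5, 51.5 and 86.5 CPM and 13.5, 26.5, 20.4 and 10.6 CPM (edgeR log2FC −1.90, SE 0.26, adjusted p = 2.4e-04), lower in every 5% library. *Sox3*, a SoxB1 factor, fell with log2FC −1.32 (edgeR adjusted p = 1.7e-03, and 1.1e-02 without the 2 low-share libraries). *Pax6*, a regulator of radial glia, rose narrowly (log2FC 0.31, edgeR adjusted p = 6.8e-03), a call that no fit with 1 library left out kept (at most 2.1e-02), nor did the fit with replicate numbers as blocks (2.0e-02).

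Proliferation genes pointed down as a list, while a D-type cyclin rose strongly. Of 28 cell cycle genes, 3 rose, 10 fell and 15 did not pass, with a median log2FC of −0.72. The number called, 13, depended on the fit: it was 23 with DESeq2, 24 with all 8 culture conditions in 1 fit, 23 with replicate numbers as blocks and 22 without replicate 2 at 5%. It was 7 without replicate 1 at 1%, 8 without replicate 2 at 1%, 7 without replicate 3 at 5% and 4 without the 2 low-share libraries. *Mki67*, read in cycling cells, was at 34.5, 62.9, 46.4 and 40.5 CPM at 1% and 30.5, 37.5, 15.9 and 13.5 CPM at 5% (edgeR log2FC −0.92, SE 0.31, adjusted p = 3.3e-02). *Top2a*, for the mitotic topoisomerase, was at 98.01, 111, 77.3 and 76.2 CPM and 70.7, 74.03, 41.7 and 35.3 CPM (edgeR log2FC −0.71, SE 0.24, adjusted p = 3.0e-02). At 5% replicates 1 and 2 are the higher pair for both genes. The groups overlap for *Mki67*, whose replicate 2 at 5% lies inside the 1% range, and are apart for *Top2a*. Both were called without replicate 2 at 5% (edgeR adjusted p = 5.1e-03 and 8.1e-03) and with replicate numbers as blocks (9.0e-03 and 1.2e-03). *Rrm2*, for ribonucleotide reductase, was at 59.1, 57.3, 46.4 and 47.998 CPM and 26.5, 35.3, 22.3 and 19.1 CPM (edgeR log2FC −1.04, SE 0.17, adjusted p = 8.4e-04). *Ccnd2* (chromosome 6, 127125162–127152188), for the cyclin D2 that couples mitogens to the cycle, was at 54.9, 58.1, 44.3 and 52.9 CPM and 742, 400.1, 612 and 708 CPM (edgeR log2FC 3.54, SE 0.19, adjusted p = 1.1e-06). *E2f1*, a factor of S phase entry, rose with log2FC 1.08 (edgeR adjusted p = 2.0e-04). The groups are apart for these last 3. Of 13 inhibitors, 1 rose, 4 fell and 8 did not pass, with a median log2FC of −0.21, and 3 were called without replicate 1 at 1%. The share called is near the 31.1% of all tested genes, so the count says little of the inhibitors as a group. *Cdkn1c*, for p57, was at 26.5, 28.1, 23.8 and 25.4 CPM and 8.71, 10.9, 8.50 and 7.39 CPM (edgeR log2FC −1.55, SE 0.12, adjusted p = 6.6e-06), with groups apart, and *Cdkn1a*, for p21, did not pass (log2FC −0.18, edgeR adjusted p = 4.0e-01).

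Most genes of the cholesterol list were lower at 5%, and *Sqle* alone was higher. The list holds enzymes of cholesterol synthesis together with genes of its uptake, transport and regulation, so its counts are not those of the enzymes alone. Of 23 genes, 1 rose, 17 fell and 5 did not pass, with a median log2FC of −0.78. *Hmgcs1*, for an early enzyme of the pathway, was at 584, 635, 487 and 549 CPM at 1% and 281, 282, 234 and 206 CPM at 5% (edgeR log2FC −1.17, SE 0.12, adjusted p = 3.4e-05). *Msmo1*, a C4-demethylating sterol oxidase, was at 151, 161, 158.5 and 177 CPM and 56.8, 64.3, 53.3 and 44.7 CPM (edgeR log2FC −1.57, SE 0.10, adjusted p = 2.6e-06). The groups are apart for both. *Fdft1* (squalene synthase) fell with log2FC −1.54 and *Cyp51* (lanosterol demethylase) with −1.49 (edgeR adjusted p = 3.3e-05 and 1.6e-05). *Sqle*, squalene epoxidase, was at 177, 195, 161 and 173 CPM and 261, 191, 302 and 337 CPM (edgeR log2FC 0.62, SE 0.15, adjusted p = 6.3e-03). Its replicate 2 at 5% lies inside the 1% range, and its call was lost without any library but replicate 2 at 5% (at most 2.2e-02) and with replicate numbers as blocks (1.8e-02).

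Of 17 genes for sterol efflux and fatty acid synthesis, 3 rose, 7 fell and 7 did not pass, with a median log2FC of −0.29. The share that rose is near the 17.4% of all tested genes, so the count of gains says little of this list. *Abca1*, for the cholesterol exporter that oxysterols induce through LXR, was at 67.8, 61.2, 63.4 and 66.6 CPM at 1% and 151, 103, 126 and 154 CPM at 5% (edgeR log2FC 1.04, SE 0.12, adjusted p = 8.4e-05). *Mylip*, for a ubiquitin ligase that LXR also induces, was at 2.54, 2.61, 2.16 and 2.50 CPM and 5.36, 4.99, 4.95 and 5.82 CPM (edgeR log2FC 1.10, SE 0.13, adjusted p = 1.0e-04). Both are higher in every 5% library. The fatty acid desaturases went down: *Fads2* was at 908, 931, 805 and 911 CPM and 346, 474, 419 and 333 CPM (edgeR log2FC −1.18, SE 0.11, adjusted p = 2.3e-05), and *Fads1* fell from a mean of 1112 to 559 CPM (edgeR adjusted p = 1.6e-05). *Srebf1* rose (log2FC 0.46, edgeR adjusted p = 3.0e-03), a call lost without replicate 1, 3 or 4 at 1% (at most 1.2e-02) and with replicate numbers as blocks (1.1e-02).

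Markers show neural cells in both groups and no full set of any other cell type. Astrocyte markers sum to 19446, 23566, 21878 and 18007 CPM at 1% and 19809, 20145, 14587 and 13148 CPM at 5%, of which *Gfap* is by far the most abundant, and 4 of the 6 fell. Oligodendrocyte lineage markers sum to 2996, 2644, 2816 and 2907 CPM and 1368, 1863, 1623 and 1039 CPM, led by *Olig1*, and 5 of 6 fell. Neuronal markers sum to 142, 123, 124 and 113 CPM and 103.6, 111, 65.2 and 48.2 CPM, led by *Tubb3*, and of 6 neuronal markers 1 rose and 1 fell. That share is near the 31.1% of all tested genes called, so the count says little of the neuronal markers. The labelled cell type, NPC, is a name for the starting cells: *Sox2* and *Fabp7* are high, and *Gfap* at a mean of 4407 FPKM at 1% and 3680.3 FPKM at 5% shows that cultures of both groups are rich in astrocyte-type RNA. Mesenchymal and pericyte markers sum to 198, 189, 196 and 189 CPM and 191, 282, 174 and 149 CPM, a sum led by *Cspg4*, which oligodendrocyte progenitors express too and which fell. Without *Cspg4* the mean sum went from 32.8 to 130.4 CPM, with *Dcn*, *Pdgfrb*, *Lum* and *Tbx18* higher, while *Rgs5*, *Kcnj8*, *Abcc9*, *Meox1* and *Meox2* are not among the called genes and 4 of the 10 markers stay under 1 CPM in all 8 libraries. Of the endothelial markers *Kdr*, for the VEGF receptor 2, rose from 0.828, 0.503, 0.738 and 1.17 CPM to 21.6, 13.8, 27.6 and 35.4 CPM (edgeR log2FC 4.89, SE 0.33, adjusted p = 2.9e-06), and the other 6, *Pecam1* and *Cdh5* among them, are under 1 CPM in every library. Of the Schwann and neural crest markers *Prx* rose (log2FC 1.81, edgeR adjusted p = 3.4e-06) and *Foxd3* and *Tfap2b* are at 0. Myeloid markers sum to 3.59, 2.99, 5.09 and 2.37 CPM and 2.41, 2.68, 2.66 and 2.34 CPM, led by *Cd68*. Pluripotency markers sum to 2.14, 2.73, 2.08 and 2.86 CPM and 2.77, 2.98, 2.47 and 2.88 CPM, led by *Esrrb*, with *Pou5f1* and *Zfp42* at 0. Skeletal muscle markers sum to 1.26, 1.32, 1.80 and 1.46 CPM and 0.558, 1.36, 0.499 and 0.514 CPM, led by *Tnnt3*. Cartilage and bone markers sum to 55.5, 55.9, 51.5 and 42.98 CPM and 42.7, 61.1, 38.2 and 33.7 CPM, led by *Sox5*. Of these 7 markers 1 was higher and 1 lower, and beside the 31.1% of all tested genes called this count says little of the group. Adipocyte markers sum to 5.92, 5.72, 5.40 and 5.74 CPM and 3.29, 4.65, 3.11 and 3.81 CPM, led by *Pparg*. The part that cell types other than NPC and their progeny play in the gains was not tested.

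The other doses show whether contractile and matrix genes rise strongly for the first time between 1% and 5% serum, and that holds for some of them only. In the fit of all 5 doses, 9 of 32 contractile genes were already higher at 1% FBS than in SPONT, against a background of 7.85% of all genes tested, and 17 of the 32 were higher at 10% than at 5% (background 3.31%). For the interstitial matrix list 14 of 31 genes rose from SPONT to 1%, and 6 from 5% to 10%. These steps share their middle groups, so the difference between steps was itself tested in edgeR. The steps also differ in the amount of serum added. The log2 step from 1% to 5% differed from that from SPONT to 1% for 2015 of 16020 genes (12.6%), being the larger in the upward sense for 1228 (7.67%) and the smaller for 787 (4.91%). Without replicate 1 at 1% the count was 1315, of which 476 were in the smaller direction. Of 32 contractile genes, 14 were in the first class and 4 in the second, and of 31 interstitial matrix genes 10 and 1.

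*Acta2* is a gene that had started to rise earlier. Its mean went from 1.52 CPM in SPONT to 20.7 at 1%, 248 at 5%, 802 at 10% and 2503 at 20% FBS. On the log2 scale it rose by 3.78 and then 3.57, and the difference of these steps did not pass (−0.21, SE 0.56, edgeR adjusted p = 8.3e-01). *Ccn2* has means of 1.27, 22.3, 436, 648 and 954 CPM over the same doses, and its difference of steps did not pass either (0.15, SE 0.48, edgeR adjusted p = 8.5e-01). The same holds for *Tagln* (−1.33, SE 0.53, edgeR adjusted p = 7.9e-02), for *Col8a1* (0.26, SE 0.51, edgeR adjusted p = 7.5e-01) and for *Lox* (0.18, SE 1.05, edgeR adjusted p = 9.2e-01). *Fhl2* behaves otherwise, with means of 2.80, 2.50, 40.7, 112 and 191 CPM and a larger step from 1% to 5% (4.18, SE 0.42, edgeR adjusted p = 1.0e-06). *Myl9* (1.83, SE 0.15, edgeR adjusted p = 1.6e-07), *Tpm1* (1.96, SE 0.21, edgeR adjusted p = 2.3e-06), *Fn1* (1.78, SE 0.29, edgeR adjusted p = 2.1e-04), *Thbs1* (3.88, SE 0.63, edgeR adjusted p = 2.0e-04), *Nuak2* (4.84, SE 0.34, edgeR adjusted p = 1.6e-08) and *Tgfb3* (2.95, SE 0.29, edgeR adjusted p = 7.3e-07) also had the larger step from 1% to 5%. For *Gfap*, which has means of 7879.9, 18588, 15524, 9388 and 4017 CPM, the step from SPONT to 1% was the larger (−1.52, SE 0.29, edgeR adjusted p = 9.4e-04).

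Where the next increase in serum, from 5% to 10%, was called different from the step from 1% to 5%, it was mostly the lower. These steps are not equal increases in serum, so a lower step does not show a weaker response to the same increase. A gene that was not called is not thereby shown to have equal steps. The log2 step from 5% to 10% differed from that from 1% to 5% for 714 of 16020 genes (4.46%), lower for 660 (4.12%) and higher for 54 (0.337%). Of the contractile list 11 genes had a smaller next step and of the interstitial matrix list 12. This test is the more sensitive to single libraries: its count was 455 without replicate 1 at 5%, with 23 higher and 432 lower, and 455 again without replicate 4 at 5%, with the same split, although the genes called in these 2 fits are not all the same. The 54 became 155 without replicate 2 and 28 without replicate 3 at 5%, 35 without replicate 3 at 1%, and 157 with DESeq2. *Acta2* did not pass it (−1.88, SE 0.52, edgeR adjusted p = 2.7e-02), while *Ccn2* (−3.71, SE 0.42, edgeR adjusted p = 5.6e-06), *Cnn1* (−2.75, SE 0.36, edgeR adjusted p = 3.1e-05) and *Fn1* (−1.80, SE 0.27, edgeR adjusted p = 1.5e-04) did. The sterol genes *Msmo1* and *Cyp51* went the opposite way in this test. *Msmo1* had means of 163, 162, 54.8, 39.997 and 37.8 CPM (1.12, SE 0.16, edgeR adjusted p = 6.2e-05) and *Cyp51* of 329, 271, 97.2, 74.6 and 59.7 CPM (1.11, SE 0.18, edgeR adjusted p = 3.6e-04).

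**Figure D4:**
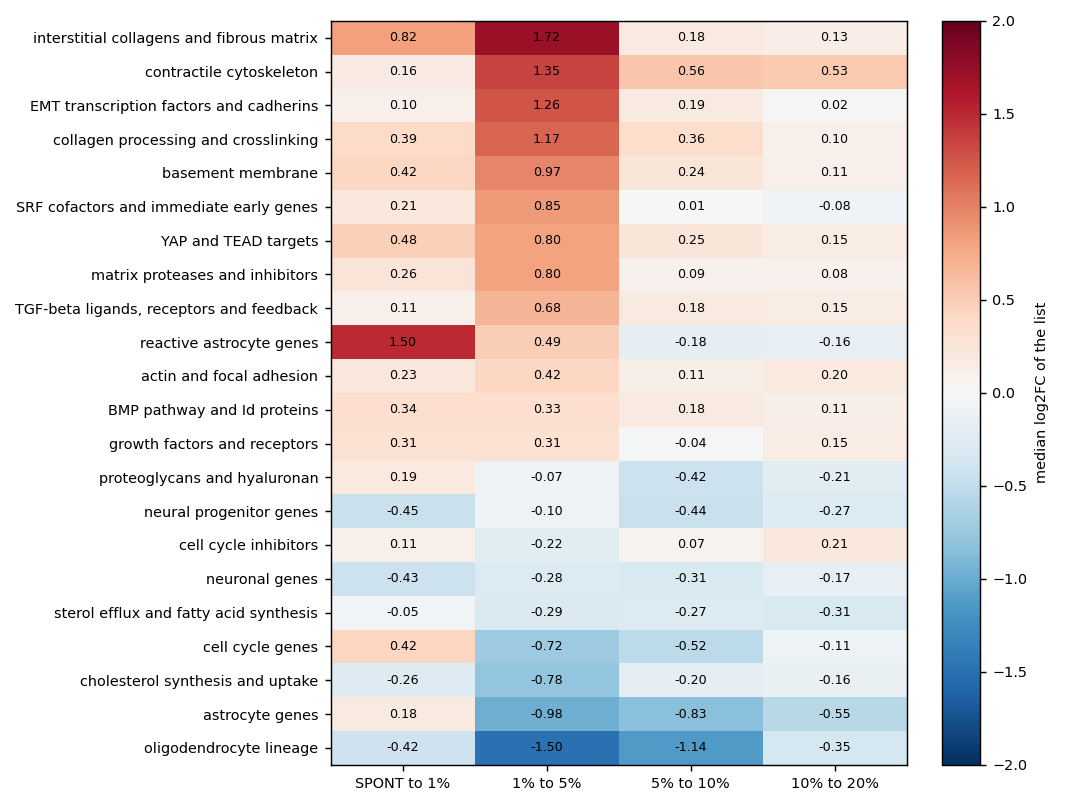
Median log2FC of each list at each increase of serum, from the fit of 5 doses. Lists are ordered by the step from 1% to 5%. Neighbouring columns share a group of libraries, so their values stand side by side and are not independent.

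The comparison cannot separate the serum dose from anything else that differed between the 2 sets of cultures, since the labels name no batch or culture date. Ribosome-bound RNA is not protein, so contraction and deposited matrix were not measured.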

How the data were processed

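Ribosome-bound RNA was measured in 8 libraries of 5% FBS and 1% FBS, with 12 more of SPONT, 10% and 20% FBS for the dose steps. The deposited values are counts of reads per gene, made by the authors in Galaxy with Trimmomatic, HISAT2 (mm10) and featureCounts at default settings, per the submitters' processing notes and the study's methods. Even numbers make up 63.2–66.4% of counts from 1 to 20, a pattern that arises where both reads of a pair are counted. Library totals ran from 61590713 to 90483031. The 27179 genes are listed by Entrez identifier, and 1886 have no name in RefSeq or GENCODE M21. CPM were computed as count over library total, and FPKM as CPM per kilobase of union exon length. Reads of overlapping, antisense or near-identical genes cannot be separated.

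For the comparison of groups, edgeR 4.0.16 was run under R 4.3.3 (glmQLFit, glmQLFTest, TMM, filterByExpr at its default), with Benjamini-Hochberg adjustment and a threshold of 0.01. Differences between dose steps were contrasts in 1 fit of 5 groups. DESeq2 1.42.0 was an alternative, beside other scalings and filters, a fit of all 8 culture conditions, a replicate block and each library left out. Tests were tried on simulated data. Members and gene lists were chosen with earlier results of these data known. Named genes were drawn from the 12 largest gains and losses among called genes with a symbol and at least 10 CPM, the first 4 genes of each list and the 3 further called genes of it with the largest log2FC in size, *Rpl22*, and markers as sums. Figures used Python 3.11.15, numpy 2.4.6, pandas 2.3.3 and matplotlib 3.10.9.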

Additional observations from a re-analysis of the deposited data

Results flagged for a closer look

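In 31 of 370 groups of 4 replicate values examined, for named genes and marker sums, 1 library lay far from the other 3 by the gap to its nearest neighbour over the range. Chance gives such a value in about 1 of 20 groups. Values are in CPM. In replicate 2 at 1% FBS it was the sum of Schwann and neural crest markers (5.83, group median 6.28). In replicate 4 at 1% FBS these were *Vxn* (12.8, group median 24.3), *Dusp1* (5.96, group median 3.14), *Fabp7* (1861), *Cdkn2a* (23.6, group median 12.0) and *Rpl22* (91.2, group median 75.9). In replicate 1 at 1% FBS these were *Lama5* (87.4, group median 112), *Lama4* (2.63, group median 1.27), *Col15a1* (58.5, group median 17.1), *Snai1* (5.35, group median 2.83) and *E2f1* (4.23, group median 3.62). In replicate 3 at 1% FBS it was *Cp* (138, group median 213). In replicate 2 at 5% FBS these were the sum of skeletal muscle markers (1.36, group median 0.536), *Cbln2* (3.17, group median 0.532), *Khdrbs2* (7.00, group median 1.88), *Mbp* (70.6, group median 15.2), *Sox10* (5.18, group median 1.52), *Vxn* (9.88, group median 2.40), *Zfp488* (5.78, group median 1.47), *Col1a1* (278, group median 99.1), *Col3a1* (109, group median 27.8), *Tgfb3* (39.1, group median 64.4), *Pdgfra* (144, group median 106), *Ugt8a* (6.50, group median 1.82), *Dcx* (1.71, group median 0.435), *Cdkn1b* (102.4, group median 116) and *Tnr* (35.8, group median 12.3). In replicate 1 at 5% FBS these were *Acta2* (329, group median 223), *Cnn1* (25.4, group median 14.1), *Mrtfa* (39.6) and *Lama4* (17.9, group median 32.1). The cause was not tested, and all of these libraries were kept.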

How the results depend on the processing

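The count of 4730 called genes was 4210 with the replicate number as a block (4765 with DESeq2 size factors, 4528 with library totals, 5955 with DESeq2) and 3587–5152 with 1 library left out. With both low-share libraries left out, an alternative chosen after seeing the data, it was 2960, with 1090 lower. The step contrasts gave 1315–2466 calls (lower: 476–1106) and 455–1029 (higher: 23–155, lower: 432–874) with 1 library left out, and DESeq2 gave 157 higher in the latter. Lists that moved were oligodendrocyte lineage (9–20, and 9 without both low-share libraries), neuronal genes (5–8, and 3 without both), cell cycle genes (23 with DESeq2, 24 in the fit of 8 conditions, 23 with the block, 7–22, and 4 without both) and cell cycle inhibitors (3–6). The cause was not tested. Replicate numbers show no pairing: deviations of same-numbered libraries correlate from −0.0505 to 0.206, no 1% library correlates best with its own number and 1 of 4 at 5% does. Larger values lie across numbers: 0.537 for 1% replicate 4 with 5% replicate 3, the low-share libraries, 0.504 for 1% replicate 2 with 5% replicate 1 and −0.486 for 1% replicate 2 with 5% replicate 3. Their source was not tested. The block moved no other count past 1.5 times. No named gene changed direction in a fit that called it.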
